A study of Mus musculus with 34 samples.

Results

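Macrophages of LLC tumors were compared with the Sca1-negative monocytes of LLC tumors, in 8 of the 34 mouse libraries of the series. The libraries were chosen by title: 4 titled in_vivo_LLC_TuMac, called the macrophages here, and 4 titled in_vivo_LLC_TuMon2, called the TuMon2 monocytes. LLC is a Lewis lung carcinoma line, and all 8 libraries came from cells sorted by flow cytometry out of LLC tumors in C57/Bl6 mice, with no genetic change or treatment named. The first group is labelled only as macrophage, with no antigens given for its gate, and the second as Ly6C+ CD88+ Sca1- monocyte. The labels give no age and do not say whether the 4 libraries of a group came from separate mice or pooled ones, so the p-values below measure the spread between these libraries, which may be technical. Each group describes tumors of 1 transplanted line. Expression is given in CPM, counts per 1000000 counts of a library after TMM scaling, and differences as the log2 difference of macrophages minus monocytes ± SE from edgeR's quasi-likelihood fit of all 24 libraries taken from mice, with Benjamini-Hochberg adjusted p. A gene "rose" or "fell" in the macrophages where the adjusted p was under 0.05 over all 13200 genes tested. CPM is not divided by gene length, so levels are compared between groups and not between genes.

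Monocytes with high Ly6C leave the blood with the help of the chemokine receptor CCR2, and many tumor macrophages are known to derive from them. Along that path, textbook accounts have the cell lose Ly6C and gain receptors for dying cells, complement C1q and, depending on the tissue, MHC class II, which presents antigen to CD4 T cells. Tumor macrophages are known for clearing debris, remodelling matrix and secreting growth factors, and monocytes for fast inflammatory and interferon-induced transcription.

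The gene of each sorted antigen and the markers of the 2 cell types were read first. Cadm1 (Entrez Gene ID 54725, chromosome 9), a cell adhesion molecule and the marker fixed for the macrophages, was at 15.97, 18.6, 19.5 and 15.0 CPM in the macrophages, against 0.176, 0.414, 0.303 and 0.515 CPM in the monocytes (log2 difference 5.51 ± 0.33, adjusted p = 1.14e-11). Chil3 (Entrez Gene ID 12655, chromosome 3), a chitinase-like protein and the marker fixed for the monocytes, was at 11.3, 12.04, 12.7 and 55.9 CPM in the macrophages, against 834, 775, 825 and 1092 CPM in the monocytes (-5.27 ± 0.48, adjusted p = 3.15e-08). The groups did not overlap for either gene, and macrophage replicate 4 had more Chil3 than the other 3 macrophage libraries. Ly6c2, which encodes a Ly6C antigen, was at 14.5, 11.9, 20.7 and 24.4 CPM in the macrophages, against 896, 892, 959 and 935 CPM in the monocytes (-5.69 ± 0.25), and C5ar1, which encodes CD88, at 465, 495, 401 and 392.1 CPM in the macrophages, against 594, 586, 600.0 and 595 CPM in the monocytes (-0.44 ± 0.14). Both fell in the macrophages, Ly6c2 to a small remainder and C5ar1 by less than 2-fold, a call lost with upper quartile scaling (-0.29). Ly6a, which encodes Sca1, rose, with 131, 86.9, 161 and 184 CPM in the macrophages, against 38.9, 29.5, 37.9 and 39.6 CPM in the monocytes (1.95 ± 0.54). The monocytes were gated on Ly6C, CD88 and Sca1. Their Ly6c2, C5ar1 and Ly6a levels were thus selected by the sort and are no independent result. Reads of Ly6c2 can also fit Ly6c1, a close copy beside it, so its values are uncertain. Of the macrophage markers fixed for the check, Mertk (1.25), Adgre1 (0.65), C1qa (3.11), C1qb (2.64) and C1qc (2.96) rose, Fcgr1 (-1.40) fell, and Mrc1 (0.29 ± 0.30) did not pass. Of the monocyte markers, Ccr2, Plac8 and Vcan fell, beside the gated Ly6c2. In bulk RNA, fewer cells of a kind and less RNA per cell cannot be told apart, here and for every difference that follows.

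Across the 13200 genes, 3859 rose and 3471 fell in the macrophages, so that 29.2% of all genes were higher, 26.3% were lower and 55.5% had changed. These shares are the background against which the lists are read. The 4 libraries of 1 group lay wholly above the 4 of the other in 51.6% of genes. The rises exceeded 2-fold in 1338 genes and the falls in 836, and the median log2 difference over all genes was 0.06. Upper quartile scaling moved that median to 0.21 and the split to 5053 higher and 2590 lower (66.1% higher, against 52.6%), so the balance of directions rests on the scaling. The first principal component of the 8 libraries held 63.6% of their variance and separated the groups. The mitochondrially encoded share of counts was 2.84% to 4.72% in the macrophages and 1.36% to 1.64% in the monocytes (exact permutation p = 0.0286, 2-sided, the smallest that 4 against 4 allows). Beside it, the totals (14579232 to 24600975 in the macrophages and 13198843 to 22636611 in the monocytes) and the genes with counts (14079 to 15018 in the macrophages and 13816 to 14637 in the monocytes) overlapped.

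**Figure D1:**
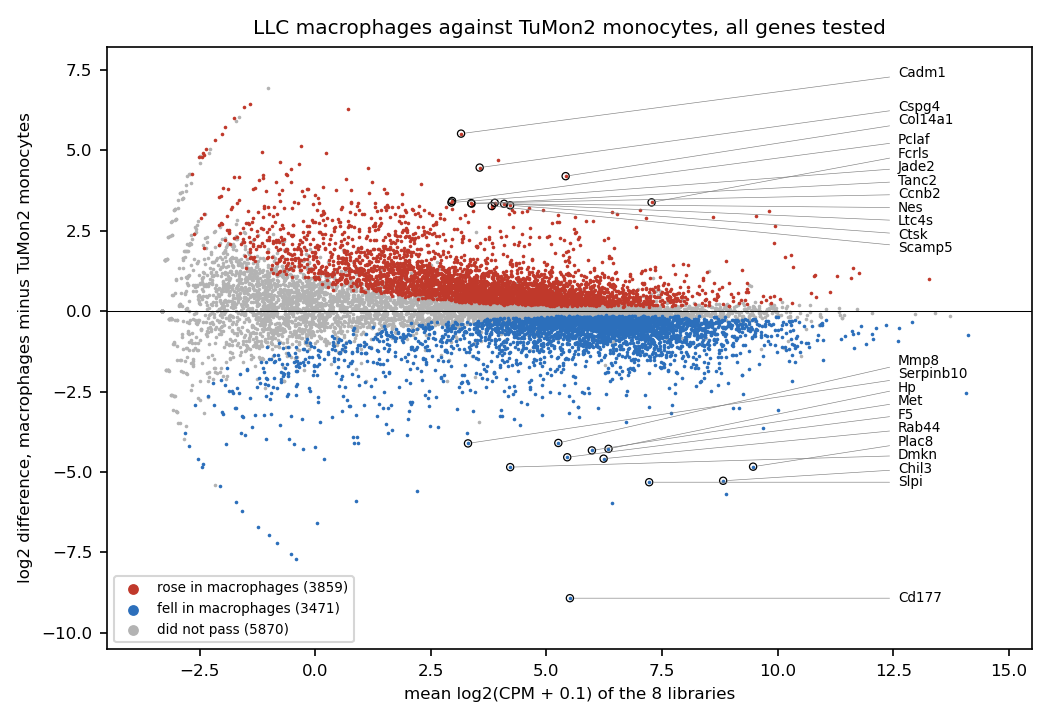
Log2 difference of LLC macrophages minus TuMon2 monocytes (vertical) against mean log2 CPM of the 8 libraries (horizontal) for the 13200 genes tested, with the 3859 genes that rose and the 3471 that fell in color. Named points are the 12 largest rises and 11 of the 12 largest falls, taken where 1 group averaged 10 CPM or more and the libraries did not overlap.

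Cd177, a surface glycoprotein best known from neutrophils, fell the most of the genes under the naming rule. It was at 0.117, 0.0460, 0.398 and 0.258 CPM in the macrophages, against 87.7, 78.7, 86.4 and 109 CPM in the monocytes (-8.92 ± 0.32, adjusted p = 6.14e-15). The macrophage libraries were close to 0, and no macrophage value reached the lowest monocyte value. Slpi, an inhibitor of neutrophil elastase, was at 6.89, 6.48, 5.37 and 10.6 CPM in the macrophages, against 276, 270.0, 281 and 337 CPM in the monocytes (-5.32 ± 0.22), and Plac8, a cysteine-rich protein of monocytes, at 39.1, 26.7, 51.7 and 74.8 CPM in the macrophages, against 1319, 1220.5, 1407 and 1530.5 CPM in the monocytes (-4.83 ± 0.26). Met, the receptor of hepatocyte growth factor, was at 6.58, 6.76, 3.84 and 6.53 CPM in the macrophages, against 103, 133, 115 and 130.3 CPM in the monocytes (-4.33 ± 0.14, adjusted p = 2.93e-16). The 4 libraries of each group lay close together for Met, Slpi and Plac8, with macrophage replicate 4 the highest of its group for Slpi and Plac8. The other largest falls were Dmkn (-4.85), the GTPase gene Rab44 (-4.59), the clotting factor F5 (-4.54), the haptoglobin gene Hp (-4.28), the protease inhibitor Serpinb10 (-4.11) and the collagenase Mmp8 (-4.10). In LLC spleen monocytes, Cd177 averaged 334 CPM, Serpinb10 348 CPM and Hp 719 CPM, above both tumor groups. Slpi and Met averaged 49.97 and 47.4 CPM in those spleen cells.

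In the list of 22 classical monocyte genes, all of them tested, 0 rose and 19 fell, with a median log2 difference of -2.42. Ly6c2, selected by the gate, was among the 19. Vcan, the matrix proteoglycan versican, fell by 3.64, Thbs1, the matrix protein thrombospondin 1, by 2.56 and F13a1, a clotting transglutaminase, by 1.81. Ccr2 was at 1194, 1606, 1088 and 1033 CPM in the macrophages, against 1548, 1746, 1499 and 1508 CPM in the monocytes. That fall (-0.36 ± 0.12) was small, macrophage replicate 2 lay within the monocyte range, and the call was lost with upper quartile scaling (-0.21), without macrophage replicate 4 (-0.29) and without monocyte replicate 2 (-0.32). Fn1, which encodes fibronectin, was at 10272, 11680.0, 10115 and 10160.0 CPM in the macrophages, against 11273, 11764, 11942 and 9094 CPM in the monocytes (-0.06 ± 0.11, adjusted p = 0.662) and did not pass, nor did the integrin Itga4 (-0.24 ± 0.15) or the lysozyme on the list. Of 15 nonclassical monocyte genes, 5 rose and 7 fell: the fractalkine receptor Cx3cr1 rose by 1.21 and Cd300e by 2.61, while Ace fell by 2.40. Of 11 tested MS4A genes, 1 rose (Ms4a7, 1.15, and 1.07 without monocyte replicate 4, where it lost the call) and 8 fell (Ms4a4c by 1.93).

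After Cadm1, the largest rise under that rule was that of a surface proteoglycan. Cspg4, also called NG2, was at 25.2, 26.98, 23.4 and 13.4 CPM in the macrophages, against 1.496, 0.621, 1.74 and 0.401 CPM in the monocytes (4.45 ± 0.68), and Col14a1, a fibril-associated collagen, at 86.7, 88.2, 94.2 and 53.4 CPM in the macrophages, against 6.51, 3.10, 5.53 and 3.03 CPM in the monocytes (4.19 ± 0.53). Macrophage replicate 4 was the lowest of its group for both, and still far above every monocyte library. Ctsk, which encodes the collagen-cutting protease cathepsin K, was at 27.7, 40.1, 44.4 and 21.8 CPM in the macrophages, against 2.73, 3.52, 5.15 and 2.40 CPM in the monocytes (3.28 ± 0.42, adjusted p = 1.68e-06). Fcrls, an Fc receptor-like scavenger gene known from mouse microglia, was at 344, 238, 359 and 186 CPM in the macrophages, against 36.2, 24.2, 33.8 and 15.6 CPM in the monocytes (3.37 ± 0.38). Ltc4s, the synthase of leukotriene C4, was at 29.3, 27.8, 32.3 and 33.3 CPM in the macrophages, against 3.35, 2.69, 3.78 and 2.46 CPM in the monocytes (3.33 ± 0.54), and Nes, the intermediate filament nestin, at 18.1, 19.9, 22.7 and 14.5 CPM in the macrophages, against 1.23, 1.71, 1.74 and 2.63 CPM in the monocytes (3.34 ± 0.51). None of these overlapped between the groups. The remaining members of the 12 were Pclaf (3.42) and Ccnb2 (3.35), which act in dividing cells, and Jade2 (3.37), Tanc2 (3.36) and Scamp5 (3.26). LLC spleen monocytes averaged 0.133 CPM of Col14a1, 0.379 CPM of Fcrls and 0.0485 CPM of Cspg4.

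**Figure D2:**
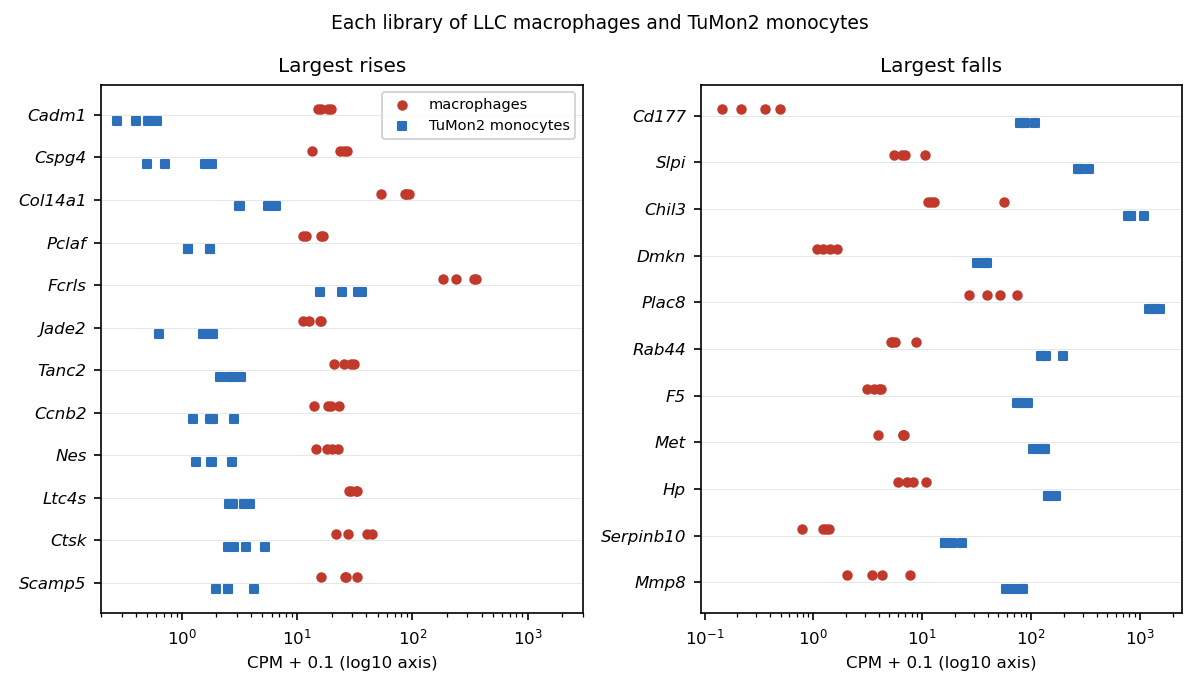
CPM on a log10 axis (plus 0.1) in each of the 4 macrophage libraries and 4 TuMon2 monocyte libraries for the 12 largest rises (left) and 11 of the 12 largest falls (right). No macrophage library overlaps a monocyte library for any of these genes, which the rule for choosing them required.

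Genes of resident tissue macrophages moved unevenly. Of 28 tested members of that list, 15 rose and 4 fell (median 0.60, against 0.06 over all genes and 29.2% of all genes higher). C1qa, the first chain of complement C1q, was at 1679, 1440.3, 1741 and 1545 CPM in the macrophages, against 208, 159.7, 217 and 159.8 CPM in the monocytes (3.11 ± 0.66), and C1qb and C1qc differed by 2.64 and 2.96. Pltp, a phospholipid transfer protein, was at 698, 651, 734 and 678 CPM in the macrophages, against 110.0, 89.5, 105 and 56.5 CPM in the monocytes (2.94 ± 0.14, adjusted p = 4.53e-14). Both genes stood several times above every monocyte library. Mertk, a receptor kinase for dying cells, was at 49.9, 50.8, 43.6 and 49.6 CPM in the macrophages, against 20.3, 21.7, 16.5 and 22.8 CPM in the monocytes (1.25 ± 0.40), its ligand Gas6 at 54.8, 37.7, 47.6 and 30.2 CPM in the macrophages, against 5.81, 4.91, 4.92 and 4.23 CPM in the monocytes (3.11 ± 0.71), and the related receptor Axl rose by 0.96. The folate receptor Folr2 (2.80) and Lyve1 (2.47), genes of perivascular macrophages, also rose. Lyve1 was low, at 3.36 to 4.09 CPM in the macrophages, against 0.440 to 0.908 CPM in the monocytes. Cd163 (0.37 ± 0.39) and Timd4 (1.66 ± 1.16) of the same list did not pass, nor did Mrc1 (0.29 ± 0.30). Among the 4 that fell were Pla2g7 (-1.61), which encodes a phospholipase of platelet-activating factor, the high-affinity IgG receptor Fcgr1 and the endosomal protein Cd68 (-0.31, and -0.16 without a call under upper quartile scaling). Fcgr1 was at 457, 396, 481 and 487 CPM in the macrophages, against 1197, 1191, 1224 and 1184 CPM in the monocytes (-1.40 ± 0.13), and every macrophage library was below every monocyte library. The growth factor receptor Csf1r (-0.16 ± 0.09), Maf (-0.34 ± 0.16), Stab1 (0.77 ± 0.48) and Dab2 (0.28 ± 0.68) did not pass in the fit of 24 libraries. With the 8 libraries alone, edgeR's adjusted p was 0.0445 for Maf, 9.39e-06 for Stab1, whose libraries did not overlap, and 0.0262 for Dab2 (ranges over the alternatives 0.0152 to 0.342, 1.49e-09 to 0.304 and 0.000724 to 0.921), and it missed the threshold for Csf1r (0.0699, range 0.00781 to 0.905); Vsig4 and Marco were below the filter on low counts.

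The list of lipid-associated and efferocytic macrophage genes had 7 of 27 higher and 9 lower, near the background, and its majority turned with upper quartile scaling. Trem2, a lipid-sensing receptor, was at 229, 203, 263 and 237 CPM in the macrophages, against 101, 80.9, 103 and 76.9 CPM in the monocytes (1.37 ± 0.13), and Gpnmb, a glycoprotein of lipid-laden macrophages, at 4.71, 5.10, 2.58 and 13.8 CPM in the macrophages, against 22.1, 34.9, 21.4 and 51.8 CPM in the monocytes (-2.34 ± 0.45). These 2 genes of 1 program thus moved in opposite directions. Apoe rose by 0.60, the tetraspanin Cd63 by 1.49, and Fabp5, a fatty acid carrier, fell by 1.76. Spp1, which encodes osteopontin, was at 1555, 1585, 1483 and 1374 CPM in the macrophages, against 1974, 1883, 1951 and 1598 CPM in the monocytes (-0.30 ± 0.67) and did not pass in the fit of 24 libraries. Its groups did not overlap, and with the 8 libraries alone the adjusted p was 0.00484 (range over the alternatives 3.56e-05 to 0.859). Among 32 lysosome and V-ATPase genes, 10 rose and 13 fell, a majority that also turned with upper quartile scaling (13 and 5). Beside Ctsk, the V-ATPase subunit Atp6v0d2 rose by 3.25; Gla fell by 0.80. Of 25 genes of alternative activation and scavenging, 4 rose and 8 fell, turning to 7 and 3 with upper quartile scaling. Mgl2, a galactose-binding lectin, was at 44.6, 33.7, 48.5 and 135 CPM in the macrophages, against 6.07, 6.05, 7.64 and 17.8 CPM in the monocytes (2.78 ± 0.48). Arg1, the arginase of that program, was at 1378, 1663, 1364 and 2688 CPM in the macrophages, against 1228, 1428, 1159 and 2359.8 CPM in the monocytes (0.20 ± 0.63) and did not pass. Replicate 4 was the highest of its group in both cell types for both genes. With the 8 libraries alone and a term for replicate number, Arg1 passed in edgeR (0.20, adjusted p = 0.000864, range over the alternatives 0.000864 to 0.987). Without macrophage replicate 4 its direction turned (-0.076). Among 7 Fc receptor genes, Fcrls and the neonatal receptor Fcgrt (1.92) rose, and Fcgr1, Fcgr3 and Fcgr4 were among those that fell, 2 against 4 (3 and 3 with upper quartile scaling).

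Genes of cell division stood higher in the macrophages as a group. Of 30 mitosis and G2/M genes, all tested, 28 rose and 2 fell (median 2.65), and of 30 DNA replication and G1/S genes 25 rose and 1 fell (median 1.65), where 29.2% of all genes rose and 26.3% fell. Mki67, the Ki-67 antigen of cycling cells, was at 92.6, 88.6, 104 and 59.0 CPM in the macrophages, against 10.04, 11.4, 13.5 and 10.2 CPM in the monocytes (2.93 ± 0.33), and Top2a, which untangles DNA before mitosis, at 44.9, 34.5, 56.3 and 33.8 CPM in the macrophages, against 8.71, 5.69, 7.34 and 6.75 CPM in the monocytes (2.59 ± 0.30). No macrophage library reached down to the monocyte range for either gene, and replicate 4 was the lowest macrophage library. Ccna2, the cyclin of S phase and G2, was at 16.4, 13.6, 14.8 and 10.1 CPM in the macrophages, against 1.41, 1.29, 1.59 and 1.77 CPM in the monocytes (3.18 ± 0.32), and Cdk1, its kinase, at 12.4, 7.31, 13.1 and 7.43 CPM in the macrophages, against 1.23, 1.81, 3.03 and 1.83 CPM in the monocytes (2.34 ± 0.33). Of the replication genes, Mcm6, a subunit of the replicative helicase, was at 91.3, 73.5, 98.9 and 68.9 CPM in the macrophages, against 17.3, 16.9, 16.1 and 12.2 CPM in the monocytes (2.42 ± 0.12), and Tk1, thymidine kinase, at 13.4, 8.13, 18.1 and 10.5 CPM in the macrophages, against 1.32, 1.03, 2.42 and 0.744 CPM in the monocytes (3.22 ± 0.35). The 6 helicase subunits Mcm2 to Mcm7 rose by 1.20 to 2.42. Cenpa, a centromeric histone, fell by 0.91; Pcna rose by no more than 0.40, and Tyms (0.14) and E2f8 (0.41) were among the 4 that did not pass. The corresponding MC38 tumor differences for Mki67 and Top2a were 3.42 and 2.57, and the test of LLC minus MC38 did not pass for either (adjusted p = 0.523 and 0.992).

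Many mitotic promoters carry a CCAAT box, bound by the factor NF-Y, beside a cell cycle homology region with the core TTTGAA. Both were searched on either strand in the RefSeq windows from 250 bases before to 50 bases after each gene start (GRCm38.p6). CCAAT stood in 24 of 28 windows (85.7%) of the mitosis list, against 12289 of 32851 windows of all genes (37.4%), and TTTGAA in 21 of 28 windows (75.0%), against 5878 of 32851 windows of all genes (17.9%). For the replication list, the E2F-type motif TTTCCCGC stood in 4 of 26 windows (15.4%), against 351 of 32851 windows of all genes (1.07%). The 28 mitosis windows belong to 26 of 30 listed genes and the 26 replication windows to 24 of 30. Windows of cyclin gene Ccnb2, of Cdk1 and of Mcm7 are printed to show the matches. Those of CCAAT and TTTGAA are in capitals for Ccnb2 and Cdk1 and those of TTTCCCGC alone for Mcm7. On the reverse strand CCAAT reads ATTGG and TTTCCCGC reads GCGGGAAA. The windows hold bases -180 to -1 from the gene start, 5′ to 3′ in the direction of the gene, at chr9:70421555-70421734 for Ccnb2, chr10:69352913-69353092 for Cdk1 and chr5:138171884-138172063 for Mcm7, all on the minus strand.
Ccnb2: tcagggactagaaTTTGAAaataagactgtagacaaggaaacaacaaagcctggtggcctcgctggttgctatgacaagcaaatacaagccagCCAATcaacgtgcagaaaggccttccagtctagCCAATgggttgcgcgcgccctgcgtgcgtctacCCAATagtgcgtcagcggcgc
Cdk1: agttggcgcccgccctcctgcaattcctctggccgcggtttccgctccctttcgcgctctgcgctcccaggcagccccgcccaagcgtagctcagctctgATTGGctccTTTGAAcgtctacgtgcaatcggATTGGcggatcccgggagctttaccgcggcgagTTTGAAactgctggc
Mcm7: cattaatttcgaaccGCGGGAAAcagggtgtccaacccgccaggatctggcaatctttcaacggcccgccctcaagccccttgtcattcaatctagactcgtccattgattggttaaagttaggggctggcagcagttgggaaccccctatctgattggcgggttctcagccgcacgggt
Ccnb2 has 3 CCAAT matches spaced 33 bases apart and 1 TTTGAA, Cdk1 has 2 of each, and Mcm7 has 1 TTTCCCGC. The TTTGAA of Ccnb2, at bases -167 to -162, is not beside a CCAAT, the nearest of which starts at base -87. The motifs do not overlap each other in these windows, and a match is a description of the letters, not a site shown to be bound.

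Interferon-induced genes were lower in the macrophages nearly throughout. Of 40 tested members of the type I interferon list, 0 rose and 39 fell (median -1.51, against 26.3% of all genes lower); Ifi44 (-0.32 ± 0.25) was the exception and did not pass. Rsad2, which encodes the antiviral enzyme viperin, was at 124, 113, 120.2 and 149 CPM in the macrophages, against 1034, 914, 1041 and 1127 CPM in the monocytes (-3.03 ± 0.29, adjusted p = 4.07e-08). Cmpk2, its neighbor and a mitochondrial nucleotide kinase, was at 33.3, 30.1, 33.9 and 35.1 CPM in the macrophages, against 245, 252, 262 and 291 CPM in the monocytes (-2.99 ± 0.12). Both were lower in each macrophage library than in any monocyte library. Isg15, a ubiquitin-like protein, was at 66.7, 44.5, 71.2 and 75.0 CPM in the macrophages, against 382, 311, 404 and 411 CPM in the monocytes (-2.55 ± 0.29). Oas3, a sensor of double-stranded RNA, was at 83.9, 80.1, 85.6 and 90.8 CPM in the macrophages, against 309.5, 315, 293 and 328 CPM in the monocytes (-1.87 ± 0.11, adjusted p = 1.07e-12). The factors that carry the signal moved the same way: Stat2 by -1.76, Irf9 by -0.81 and Irf7 by -1.35. Of 25 genes linked to interferon gamma, 1 rose and 18 fell (median -1.29). The guanylate-binding protein Gbp2 fell by 2.07 and Cxcl10, a T cell attractant, by 2.31. Nos2, the inducible nitric oxide synthase, was at 2.38, 5.19, 1.59 and 4.46 CPM in the macrophages, against 27.7, 56.2, 27.2 and 47.7 CPM in the monocytes (-3.54 ± 0.62). The 1 that rose was Ciita, the switch of MHC class II transcription.

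The interferon-stimulated response element was searched as GAAANNGAAA in the same promoter windows, on both strands. It stood in 19 of 36 windows (52.8%) of the interferon list, against 1131 of 32851 windows of all genes (3.44%). The 36 windows belong to 31 of the 41 listed genes, some of which have several windows. The 150 bases before the starts of Isg15 (chr4:156200819-156200968) and Oas3 (chr5:120777660-120777809), both on the minus strand, show a clustered and a single match in capitals.
Isg15: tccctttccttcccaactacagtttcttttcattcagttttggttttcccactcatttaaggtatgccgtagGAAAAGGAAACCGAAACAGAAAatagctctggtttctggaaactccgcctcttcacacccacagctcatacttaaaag
Oas3: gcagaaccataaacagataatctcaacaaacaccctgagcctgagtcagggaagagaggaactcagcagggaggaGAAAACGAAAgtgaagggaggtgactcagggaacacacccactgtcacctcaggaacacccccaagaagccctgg
In Isg15, 3 matches overlap each other between bases -78 and -57, and in Oas3 1 match lies between bases -75 and -66. The presence of the letters says nothing about which factor was bound in these cells.

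**Figure D3:**
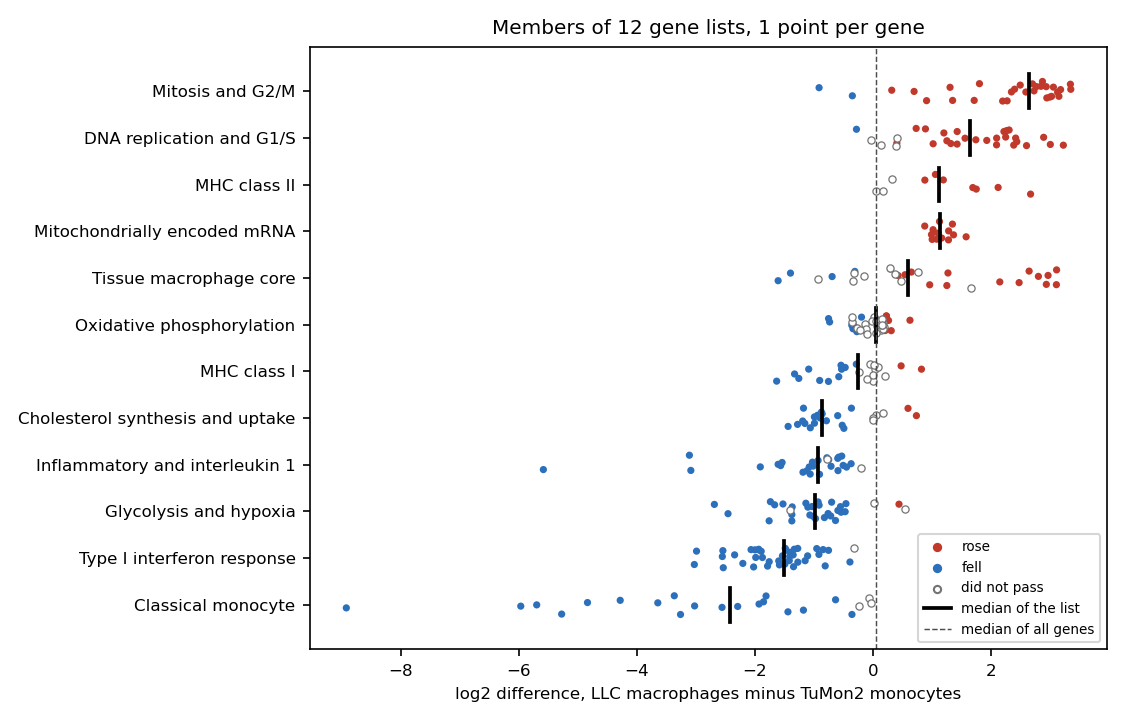
Log2 difference of LLC macrophages minus TuMon2 monocytes for each tested member of 12 gene lists, 1 point per gene, with filled points for genes that passed and a bar at the list's median. The dashed line is the median over all genes, 0.06. The medians of the mitotic, replication, MHC class II and mitochondrially encoded lists lie above it. Those of the interferon, glycolysis, cholesterol and inflammatory lists lie below it, and single genes of several lists lie on the other side.

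Antigen presentation split by class. Of 10 MHC class II genes, 7 rose and 0 fell (median 1.12). H2-Eb1, a class II beta chain, was at 1366, 1063, 1794 and 2076 CPM in the macrophages, against 374, 356, 398 and 323 CPM in the monocytes (2.12 ± 0.17, adjusted p = 1.40e-09), and Cd74, the invariant chain, at 4231, 3549, 5202 and 6211 CPM in the macrophages, against 2174, 2081, 2189.6 and 1961 CPM in the monocytes (1.19 ± 0.15). Ciita was at 80.6, 78.5, 89.2 and 108 CPM in the macrophages, against 47.7, 40.5, 42.5 and 40.5 CPM in the monocytes (1.06 ± 0.19). The groups did not overlap, and macrophage replicates 3 and 4 were the highest for each of the 3 genes. The summed dendritic cell markers, at 639, 587, 695 and 790.1 CPM in the macrophages, against 537, 549, 517 and 537 CPM in the monocytes, had the same macrophage replicates highest, and their part in the rise of class II genes was not tested. H2-Aa, H2-Ab1, H2-Ob and H2-DMb1 rose as well, by 0.88 to 2.67; H2-DMb2 (0.32 ± 0.25) was among the 3 that did not pass. Of 22 MHC class I genes, 2 rose and 11 fell. The heavy chain H2-D1 (-0.10 ± 0.08) did not pass, while the peptide transporter Tap1 fell by 0.90, the class I transactivator Nlrc5 by 1.33 and H2-T23 by 1.09. Members of the H2 family share reads and are uncertain.

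Genes that signal to T cells moved in both directions, where 29.2% of all genes were higher and 26.3% lower. Of 26 costimulation and checkpoint genes, 2 rose and 14 fell (median -0.65). Cd274, which encodes the checkpoint ligand PD-L1, was at 70.8, 78.8, 78.8 and 125 CPM in the macrophages, against 257, 239, 232 and 341 CPM in the monocytes (-1.60 ± 0.23), and Cd80, a ligand of CD28, at 60.3, 67.8, 58.8 and 65.9 CPM in the macrophages, against 122, 138, 136 and 128 CPM in the monocytes (-1.05 ± 0.12). The cytokines Il15 (-2.13) and Il18 (-1.80) fell too, and Il12b (2.37 ± 0.67) was among the 2 that rose. Among 9 chemokines that attract T cells, 3 rose and 4 fell. Cxcl16 was at 715, 669, 727 and 693 CPM in the macrophages, against 275, 234, 269 and 171 CPM in the monocytes (1.56 ± 0.37), and the CCR4 ligands Ccl17 (2.84) and Ccl22 (2.53) also rose, whereas Ccl5 fell by 1.86 beside Cxcl10, Cxcl11 and Ccl3. Of 11 genes listed by hand as monocyte attractants 2 rose and 4 fell. Ccl24, on that list though not chiefly a monocyte attractant, fell by 2.54, beside the growth factor Csf1 (-1.54). Of 5 tested neutrophil attractants 0 rose and 2 fell, Cxcl3 by 3.44 and Ppbp by 2.11.

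Inflammatory genes were lower together: of 27 members with interleukin 1 at their center, 0 rose and 25 fell (median -0.93). Ptgs2, the inducible cyclooxygenase, was at 191, 272, 181 and 227 CPM in the macrophages, against 1616, 2030.1, 1764 and 1981 CPM in the monocytes (-3.08 ± 0.69), and Nlrp3, the inflammasome sensor, at 248, 249, 234 and 281 CPM in the macrophages, against 473, 476, 488 and 456 CPM in the monocytes (-0.91 ± 0.11). Il1b itself was at 2324, 2183, 2599 and 3063 CPM in the macrophages, against 5194, 4863, 5673 and 4788 CPM in the monocytes (-1.01 ± 0.38, adjusted p = 0.0282). The groups did not overlap for these genes, but the call for Il1b was lost with upper quartile scaling (-0.87) and without macrophage replicate 1 (-0.98), 2 (-0.95) or 3 (-1.03) or monocyte replicate 3 (-0.99). Lcn2, which binds bacterial iron carriers, fell by 5.58, and Tnfrsf1b, a receptor of tumor necrosis factor, by 1.06; Tnf (-0.20 ± 0.22) and Il1a (-0.78 ± 0.35) were the 2 that did not pass; with the 8 libraries alone the adjusted p was 0.000104 for Il1a, whose groups did not overlap (range over the alternatives 2.58e-06 to 0.233), and 0.414 for Tnf (range 0.0413 to 0.967). Of 15 chemoattractant receptors, 10 fell and 2 rose: the formyl peptide receptor Fpr2 fell by 2.80, and the lymph node homing receptor Ccr7 rose by 2.03, beside Cx3cr1. The 20 heat shock and immediate early genes had 1 rise and 7 falls, with Btg2 down by 1.06.

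Glycolysis and cholesterol genes were lower as well. Of 31 tested glycolysis and hypoxia genes, 1 rose and 27 fell (median -0.97). Slc2a1, the glucose transporter GLUT1, was at 253, 309.6, 258 and 348 CPM in the macrophages, against 685, 748, 731 and 865 CPM in the monocytes (-1.37 ± 0.17), Pgk1, a glycolytic kinase, at 681, 702, 604 and 785 CPM in the macrophages, against 1364, 1523, 1394 and 1675 CPM in the monocytes (-1.10 ± 0.10), and Hif1a, the oxygen-regulated factor, at 249, 349, 241 and 306 CPM in the macrophages, against 634, 841, 649 and 845 CPM in the monocytes (-1.37 ± 0.13, adjusted p = 4.04e-09). No library of 1 group reached the other for the 3 genes. Ndrg1 fell by 1.74 and Hilpda by 1.76, and the aldolase Aldoc was the 1 that rose (0.44), without a call when macrophage replicate 4 (0.30) or monocyte replicate 1 (0.40) or 4 (0.39) was left out. Vegfa, which encodes a growth factor of vessels, was at 677, 842, 726 and 960.1 CPM in the macrophages, against 2048, 1956, 2267 and 2205 CPM in the monocytes (-1.40 ± 0.60, adjusted p = 0.0533). Its libraries did not overlap, and the difference missed the threshold in the main fit of 24 libraries. With the same 24 it passed in edgeR under RLE scaling (adjusted p = 0.0466) and a stricter filter on low counts (0.0485), and in DESeq2 (0.0316). With the 8 libraries alone edgeR's adjusted p was 9.56e-08 (range over the alternatives 3.09e-08 to 0.114). Of 24 genes of cholesterol synthesis and uptake, 2 rose and 18 fell (median -0.86). Cyp51, which demethylates lanosterol, fell by 1.19 and Fdft1, squalene synthase, by 1.18, and the late-pathway reductase Dhcr7 (0.74) was among the 2 that rose. In the 21 genes of lipid efflux and its nuclear receptors 3 rose and 9 fell. Nr1h3, which encodes the oxysterol receptor LXR alpha, rose by 0.90, and Apoc1 fell by 3.92. Apoc1 was low, at 0.0389 to 0.530 CPM in the macrophages, against 2.74 to 3.32 CPM in the monocytes.

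Mitochondrial transcripts parted by the genome that encodes them. All 13 mRNAs of the mitochondrial genome rose in the macrophages, by 0.88 to 1.58 (adjusted p from 0.000601 to 0.0243). ND1, a subunit of complex I, was at 1816, 2433, 1746 and 1484 CPM in the macrophages, against 852, 639, 777 and 637 CPM in the monocytes (1.36 ± 0.31), and COX1, the catalytic subunit of complex IV, at 12954, 16177, 12805 and 10800.0 CPM in the macrophages, against 7252, 6241, 6613 and 6219.7 CPM in the monocytes (1.002 ± 0.22). Macrophage replicate 2 was the highest of its group for both, and without it 10 of the 13 passed. The mitochondrial ribosomal RNA mt-Rnr1 (0.10 ± 0.21) did not pass. Of 38 nuclear genes of the same respiratory complexes, 7 rose and 9 fell (median 0.05), with 15 and 2 after upper quartile scaling. The same 13 mRNAs rose between monocytes and macrophages of MC38 tumors, and the difference between the tumors passed for 0 of them by edgeR and for 0 by DESeq2 (0 at an unadjusted p under 0.05 in either).

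**Figure D4:**
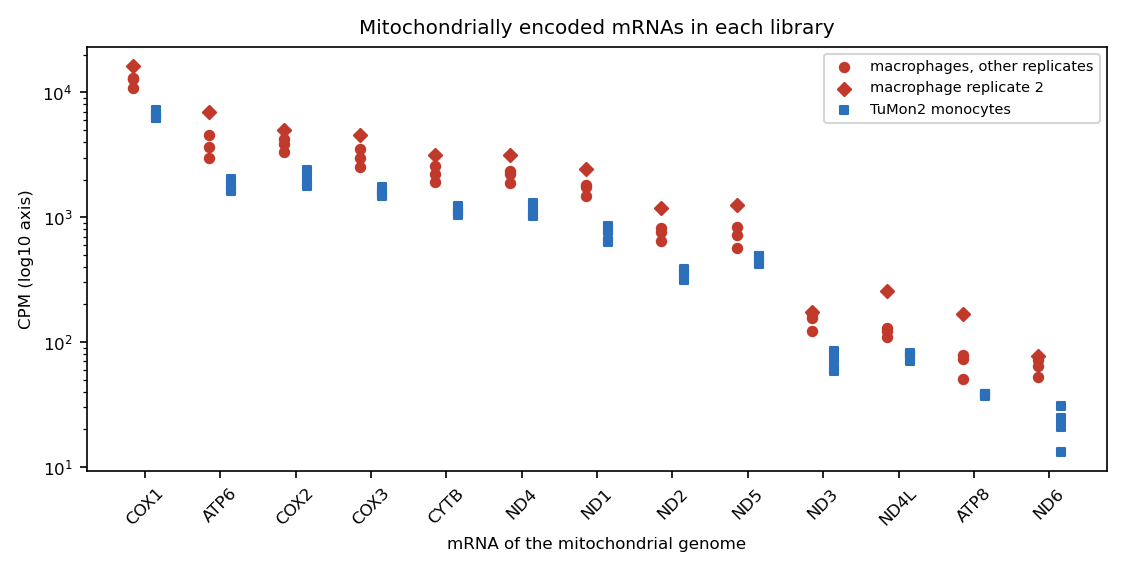
CPM on a log10 axis of the 13 mRNAs encoded by the mitochondrial genome in each macrophage library and each TuMon2 monocyte library. The macrophage points lie above the monocyte points for all 13 genes, with replicate 2 at the top of the macrophages.

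Eicosanoid, arginine and iron genes moved in both directions, as did genes at large (29.2% of all genes higher and 26.3% lower). Of 21 prostaglandin and leukotriene genes, 8 rose and 9 fell (10 and 8 with upper quartile scaling). Alox5, the first enzyme of leukotriene synthesis, was at 87.8, 83.5, 89.0 and 74.7 CPM in the macrophages, against 14.7, 19.0, 15.6 and 12.3 CPM in the monocytes (2.44 ± 0.23), and Hpgds, the hematopoietic prostaglandin D synthase, at 51.1, 46.9, 44.9 and 33.1 CPM in the macrophages, against 5.46, 3.88, 5.60 and 4.35 CPM in the monocytes (3.21 ± 0.21). With Ltc4s and the constitutive cyclooxygenase Ptgs1 (1.78) these rose, whereas Ptgs2 and Alox5ap (-0.39) fell. Of 17 arginine and polyamine genes, 6 rose and 8 fell. The second arginase Arg2 fell by 3.35 and spermine oxidase Smox by 2.50, and the cationic amino acid transporter Slc7a2 rose by 1.12. Among 17 heme and iron genes 4 rose and 8 fell, heme oxygenase Hmox1 by 1.17 and the cystine transporter Slc7a11 by 2.53. In the 20 genes of ATF4 and the unfolded protein response 2 rose and 9 fell, Ern1 by 1.13. The 49 cytosolic ribosomal protein genes stayed below the background in both directions, with 7 higher and 3 lower; the majority turned with RLE scaling (6 and 9).

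Growth factor, matrix and adhesion genes moved in both directions, as did genes at large (29.2% of all genes higher and 26.3% lower). Pdgfb (Entrez Gene ID 18591, chromosome 15), the B chain of platelet-derived growth factor, was at 162, 165, 167 and 161 CPM in the macrophages, against 25.2, 18.7, 22.8 and 15.0 CPM in the monocytes (3.01 ± 0.12, adjusted p = 2.47e-15). Its macrophage libraries were tightly grouped, and all of them above the monocytes. Pdgfc rose by 2.59, Pdgfa by 1.29 and the semaphorin and VEGF co-receptor Nrp1 by 1.65. Flt1, the VEGF receptor 1, fell by 2.48, and the regulatory cytokine Il10 by 1.65. In all, 7 of 21 tested cytokine and growth factor genes rose and 8 fell (7 and 7 with upper quartile scaling). Of 34 matrix, protease and coagulation genes 4 rose and 13 fell. Mmp9, a gelatinase, was at 31.7, 40.2, 29.5 and 24.4 CPM in the macrophages, against 9.33, 9.98, 14.7 and 15.3 CPM in the monocytes (1.35 ± 0.27) and rose with Timp2 (2.90) and Col14a1. Serpinb2, an inhibitor of plasminogen activators, fell by 3.78, and F10, a clotting factor, by 2.23. Of 19 tested complement genes 6 rose and 5 fell, near the shares of all genes (3 and 5 in DESeq2). The 3 chains of C1q were among the rises, and C3 fell by 3.001. Of 22 tested integrin and adhesion genes 5 rose and 9 fell: the integrin Itga9 rose by 2.54 and Cdh1, E-cadherin, by 1.13, and the collagen-binding Itga1 fell by 3.16.

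Of 32 myeloid transcription factors 7 rose and 13 fell. Cebpa was at 210.5, 198, 207 and 182 CPM in the macrophages, against 90.8, 74.8, 91.5 and 72.2 CPM in the monocytes (1.28 ± 0.18), and Bhlhe41 at 18.6, 18.6, 15.8 and 7.95 CPM in the macrophages, against 2.73, 2.02, 1.51 and 1.95 CPM in the monocytes (2.90 ± 0.57). Irf4, a factor of alternative activation and of some dendritic cells, was at 13.4, 11.9, 15.2 and 17.4 CPM in the macrophages, against 7.22, 5.90, 7.19 and 7.495 CPM in the monocytes (1.06 ± 0.15). The groups did not overlap for the 3 genes. Klf2 rose by 1.46, and Myc and Zbtb46 were among the other rises, Zbtb46 at under 1 CPM in every library. Id3 fell by 1.24, Runx3 by 1.20 and Zeb2 by 0.62. Cebpb (-0.93 ± 0.43, adjusted p = 0.0754) did not pass in the fit of 24 libraries and did with the 8 alone (adjusted p = 1.58e-07, range over the alternatives 3.92e-11 to 0.137).

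Markers of other cells that the sorts could hold were read as summed CPM and by member. Dendritic cell markers summed to 587 to 790.1 CPM in the macrophages and 517 to 549 CPM in the monocytes (exact permutation p = 0.0286), and 10 of 20 rose and 3 fell. Among them Clec9a stood at 0.506, 0.460, 0.530 and 1.16 CPM in the macrophages, against 0.0880, 0.103, 0 and 0.0572 CPM in the monocytes, Mgl2 and Naaa (1.12 ± 0.10) carried most of the sum in the macrophages, and Siglech was at 0 in all 8. Neutrophil markers summed to 125 to 152 CPM in the macrophages and 444 to 551 CPM in the monocytes, with 1 of 18 tested higher and 14 lower. T and NK cell markers summed to 20.4 to 28.7 CPM in the macrophages and 71.3 to 79.1 CPM in the monocytes, with 2 of 15 higher and 3 lower, Ccl5 among them; Cd3g and Cd8b1 were at 0. Epithelial and tumor markers summed to 101 to 152 CPM in the macrophages and 47.9 to 76.6 CPM in the monocytes, mostly Cdh1, with 2 of 8 higher and 1 lower, and Krt14, Krt19, Cldn3, Cldn4 and Sox2 at 0. Endothelial markers summed to 23.8 to 42.1 CPM in the macrophages and 40.0 to 61.3 CPM in the monocytes, with 1 of 6 higher and 1 lower, and fibroblast markers to 18.02 to 26.4 CPM in the macrophages and 18.9 to 31.6 CPM in the monocytes, with 0 of 15 higher and 2 lower. Platelet markers had 1 of 4 higher and 1 lower, the list for mast cells, basophils and eosinophils 1 of 5 higher and 0 lower, and the B cell (0 of 5), red cell (0 of 2) and fat cell (0 of 8) lists had no member past the threshold. The part of these markers in the differences above was not tested.

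The same difference was set against that of MC38, a colon adenocarcinoma line, whose 4 macrophage libraries were compared with 4 libraries of Ly6C+ CD88+ Sca1+ monocytes (TuMon1). Sca1 gate and tumor line coincide and cannot be told apart. The macrophage minus monocyte difference itself differed between the tumors in 1916 genes (14.5% of 13200), 1091 more positive and 825 more negative in LLC. Without any 1 of the TuMon2 libraries these counts were 657 to 705 more positive and 674 to 746 more negative, and without MC38 TuMon1 replicate 4 they were 718 and 740. H2-Eb1 averaged 1575 ± 449 CPM in LLC macrophages and 363 ± 31.7 in TuMon2 monocytes, and 1537 ± 264 in MC38 macrophages and 2357 ± 390.2 in TuMon1 monocytes (SD, n = 4 each), and the LLC minus MC38 value was 2.74 ± 0.24 (adjusted p = 7.26e-08). The macrophage minus monocyte difference of H2-Eb1 was 2.12 in LLC tumors, against -0.62 in MC38 tumors. Nes averaged 18.8 ± 3.43 CPM in LLC macrophages and 1.83 ± 0.584 in TuMon2 monocytes, and 5.68 ± 1.51 in MC38 macrophages and 7.63 ± 0.681 in TuMon1 monocytes (SD, n = 4 each) (3.76 ± 0.68, adjusted p = 0.0007). Fgl2, a fibrinogen-like protein, averaged 49.5 ± 8.37 CPM in LLC macrophages and 370.4 ± 42.1 in TuMon2 monocytes, and 996 ± 65.8 in MC38 macrophages and 1236 ± 139 in TuMon1 monocytes (SD, n = 4 each) (-2.59 ± 0.18, adjusted p = 5.54e-10). In MC38 tumors neither gene differed by as much as 2-fold between the 2 cell types. Of the other genes chosen by the largest values, Tlr12, Cdk18, Ctnnd2 and Dbn1 were more positive in LLC, and Ccl24, Cd177, Slc2a3, Klra17 and Cxcl3 more negative. The 10 CPM asked of these genes could be met in either tumor. In LLC, Klra17 was at only 0.51 to 0.99 CPM in the macrophages, and Tlr12 had 2 counts in the monocytes. For Slc2a3, the glucose transporter GLUT3, the means were 3.09 ± 0.751 CPM in LLC macrophages and 17.0 ± 3.44 in TuMon2 monocytes, and 4.81 ± 0.506 in MC38 macrophages and 3.63 ± 0.584 in TuMon1 monocytes (SD, n = 4 each) (-2.86 ± 0.31, adjusted p = 7.10e-07).

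**Figure D5:**
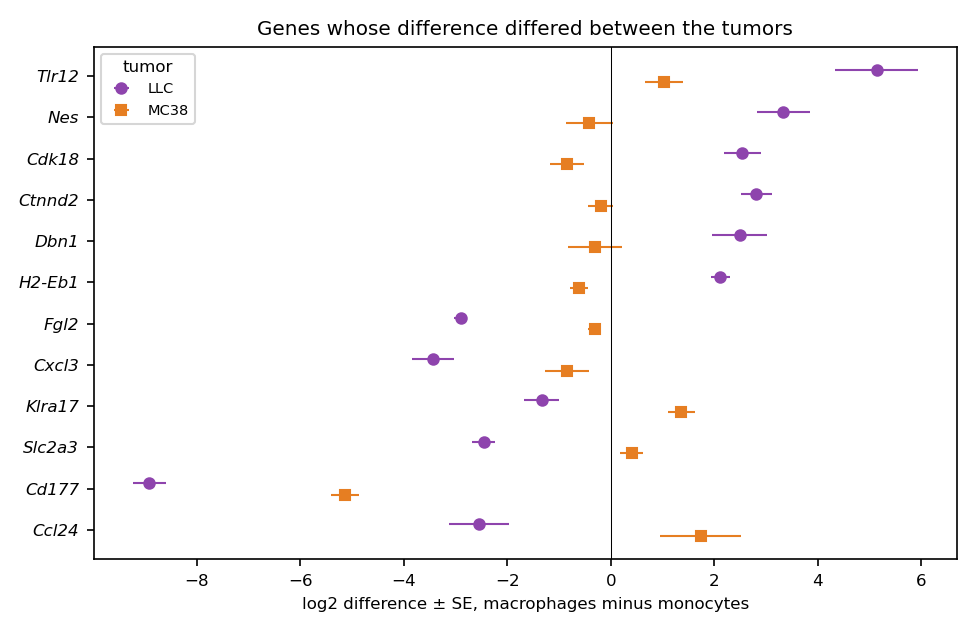
Macrophage minus monocyte log2 difference ± SE in LLC (circles) and MC38 tumors (squares) for the 6 genes with the most positive and the 6 with the most negative LLC minus MC38 value under the rule for named genes. Cd177 is below 0 in both tumors and lower in LLC; H2-Eb1, Nes, Cdk18, Ctnnd2 and Dbn1 are above 0 in LLC and at or below 0 in MC38.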

How the data were processed

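RNA of sorted cells was sequenced in 34 libraries, of which 8 are described here and 24, all those taken from mice, entered the fit. The authors deposited 1 table of expected counts per gene (Entrez Gene ID) that are partly not whole and not scaled to a common total; CASAVA 1.8.2 and GRCm38 (mm10) are named in the submitters' processing notes, and which aligner and counter were used is not given in the sources used here. Reads that could fit several near-identical genes may therefore have been divided among them. The design assumed whole counts, so the values were rounded first, with a largest change in a library total of 0.000368%. Gene symbols came from RefSeq GRCm38.p6 for 24375 of 24475 IDs.

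In edgeR 4.0.16 under R 4.3.3, filterByExpr left 13200 genes, library sizes were scaled by TMM, and the contrast of the 2 groups was tested with the robust quasi-likelihood F-test in a model of 6 group means, with Benjamini-Hochberg adjustment and a threshold of 0.05. The SE is the log2 difference divided by the square root of F. Single values per library were compared by exact permutation tests in Python 3.11.15 (scipy 1.17.1). Genes were grouped in 46 hand-written lists. The members and lists were chosen with earlier results of these data known. The rule for naming genes took the 12 largest changes each way without overlap and at 10 CPM or more in 1 group (predicted gene models and sort antigen genes left out), per list the 4 members (or fewer) lowest in adjusted p, members over 100 CPM that did not pass, the leading marker of each other cell type and the 6 largest differences between tumors in each direction; 8 genes among these are not reported here, and genes named beyond these were chosen after their values were seen. As alternatives the counts were scaled by upper quartile or RLE, fitted with no filter or a stricter one of 5 CPM in 3 libraries, tested with DESeq2 1.42.0, fitted with only the groups compared, without 3 spleen libraries that hold foreign transcripts or with a term for replicate number, and each library was left out in turn. The fit was checked on simulated counts.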

Additional observations from a re-analysis of the deposited data

Results flagged for a closer look

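Within each cell type, the library farthest from the other 3 was looked for in 386 sets of 4 CPM values, 1 for each named gene and group. A library counted as apart where its gap to the nearest of the others, divided by the whole range, passed Dixon's critical value for 4 samples. That was so in 34 sets (8.81%), where chance gives about 1 in 20, and the library apart was replicate 4 in 22 of them.

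Macrophage replicate 4 stood above the other 3 macrophage libraries for several genes that were lower in the macrophages than in the monocytes: it had 55.9 CPM of Chil3 (others 11.3 to 12.7), 8.59 CPM of Rab44, 29.1 CPM of Ccl24 (others 5.19 to 5.998), 32.0 CPM of Ace, 155 CPM of C3, 125 CPM of Cd274 and 661 CPM of Btg2. The same library also had 135 CPM of Mgl2 (others 33.7 to 48.5), 139.9 CPM of Cdh1 and 1.16 CPM of Clec9a, genes that were lower in the monocytes than in the macrophages. It stood below the others for Cx3cr1, with 390.3 CPM (others 523 to 532), for the galactosidase gene Gla, with 61.6 CPM, and for Amd1, with 1.23 CPM (others 37.0 to 41.1).

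Monocyte replicate 4 stood above the other 3 monocyte libraries with 142.6 CPM of Ccl24 (others 37.6 to 41.7), 17.8 CPM of Mgl2, 962 CPM of F10, 956 CPM of Fcgr3, 47.7 CPM of Flt1, 337 CPM of Slpi and 1.89 CPM of Atp6v0d2. It stood below them for Cx3cr1, with 129 CPM (others 229 to 249), and for Csf1r, with 1866 CPM. Ccl24, Mgl2 and Cx3cr1 thus set replicate 4 apart in the same direction in both cell types.

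The other 12 sets had another library apart. Macrophage replicate 2 had 17.6 CPM of Cenpa, 11680.0 CPM of Fn1 and 703 CPM of Zeb2, and macrophage replicate 3 had 3.84 CPM of Met, 43.6 CPM of Mertk and 0.994 CPM of Klra17. Monocyte replicate 2 had 591 CPM of Cxcl10, 9.72 CPM of Ifi44, 29.5 CPM of Ly6a and 40.7 CPM of Cd63, and monocyte replicate 1 had 127 CPM of Irf9 and 0.440 CPM of Ccr7.

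The macrophage minus monocyte difference itself differed between LLC and MC38 tumors by edgeR's interaction test for the 12 genes chosen by size. The LLC minus MC38 value was 4.11 for Tlr12, 3.76 for Nes, 3.39 for Cdk18, 3.01 for Ctnnd2, 2.80 for Dbn1 and 2.74 for H2-Eb1. It was -4.28 for Ccl24, -3.78 for Cd177, -2.86 for Slc2a3, -2.70 for Klra17, -2.59 for Cxcl3 and -2.59 for Fgl2.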

How the results depend on the processing

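Among the 193 named genes, 168 kept their direction and their side of the threshold under all 17 alternatives, 6 lost the call in at least 1 and 17 gained it in at least 1. The direction of 3 genes that did not pass turned: Fn1 (0.085) and H2-D1 (0.052) with upper quartile scaling, and Arg1 when 1 library was left out (-0.076 to 0.45). The counts of higher and lower genes in LLC stayed within 1.5 times, from 3315 to 3672 higher and 3239 to 3411 lower with 1 library left out; the majority turned to the falls with RLE scaling (3551 and 3846), DESeq2 (3612 and 3905), no filter (3386 and 3743) and without TuMon2 replicate 1 or 3. The difference between tumors held 657 to 1004 more positive and 656 to 839 more negative genes with 1 library left out. The replicate block, a term for tumor by replicate number, gave 3784 higher and 3498 lower genes in LLC, and 1860 more positive and 1438 more negative genes (3298 in all) between tumors when only the groups compared were fitted. Deviations of same-numbered libraries correlated at -0.03, 0.15, 0.06 and 0.05, of which 1 was over 0.1, and the labels tie no number to a shared animal, litter or day, so the numbers were not taken as pairs. That 3 of the 4 macrophage libraries correlated best with the monocyte library of their own number is a hint from the data. The same number was also the highest library in both cell types for many genes. Of 8415 genes at 10 CPM or more, this was replicate 1 for 357 and replicate 2 for 1669. It was replicate 3 for 725 and replicate 4 for 822. What these gene counts owe to pairing or to library totals was not tested, and they were not set against what unrelated numbering would give. Replicate 2 had higher totals (21021525 in the macrophages and 22636611 in the monocytes) than replicate 3 (14579232 and 15638655) in both cell types. Of the genes that gained the call under the block, Arg1 had 0.20 (adjusted p = 0.000864) with only the 8 libraries fitted, against a range over all alternatives of 0.000864 to 0.987. The cause of these shifts was not tested. Totals of 13198843 to 24600975 counts leave genes under about 1 CPM with few counts, and 11275 genes lay below the filter.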

Other observations

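Several inflammatory genes missed the threshold in the fit of 24 libraries although the libraries of the 2 groups did not overlap. Cxcl2, a neutrophil attractant, differed by -1.18 (adjusted p = 0.0986 in edgeR), the early response gene Ier3 by -1.16 (adjusted p = 0.0942), Ccl4 by -0.94 (adjusted p = 0.113) and Ccl2, the main ligand of CCR2, by -0.83 (adjusted p = 0.211). With the 8 libraries alone the adjusted p was 1.69e-05 for Cxcl2, 2.49e-08 for Ier3, 2.47e-05 for Ccl4 and 1.85e-05 for Ccl2. The fit of 24 holds 3 MC38 spleen libraries with foreign transcripts, and without them Ccl2 still missed the threshold. In edgeR without these 3, the adjusted p was 0.0218 for Cxcl2, 0.0217 for Ier3 and 0.0363 for Ccl4. Over all alternatives it ranged from 1.78e-12 to 0.190 for Cxcl2, from 1.00e-11 to 0.169 for Ier3, from 1.35e-07 to 0.224 for Ccl4 and from 1.85e-05 to 0.332 for Ccl2. These 4 genes were chosen after their values were seen.

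Replicate 4 was the highest library in both cell types for several genes of alternative activation and adhesion, listed after their values were seen. Over 8415 genes at 10 CPM or more, replicate 4 was so for 822 and replicate 2 for 1669. Replicate 3 was so for 725 and replicate 1 for 357. These counts were not set against what unrelated numbering would give. Arg1 was at 2688 CPM in macrophage replicate 4 (others 1364 to 1663) and 2359.8 CPM in monocyte replicate 4 (others 1159 to 1428). The lectin Clec10a was at 35.0 CPM in macrophage replicate 4 (others 14.6 to 18.1) and 20.3 CPM in monocyte replicate 4 (others 11.9 to 13.4). Pecam1, an adhesion molecule of endothelium and leukocytes, was at 29.5 CPM in macrophage replicate 4 (others 12.3 to 14.7) and 49.5 CPM in monocyte replicate 4 (others 27.2 to 33.01).

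Pairs of near-identical genes traded counts between libraries. Rpl30 was at 415, 1.88, 387 and 5.30 CPM in the macrophages, against 3.08, 391, 5.90 and 345 CPM in the monocytes, and its copy Gm12191 was high where Rpl30 was low. Their sum was 331 to 419 CPM in the macrophages and 353 to 410 CPM in the monocytes. Amd1, a polyamine enzyme, passed with a difference of 4.69, yet had the same value as Amd2 in macrophage replicates 1, 2 and 3 (39.1, 41.1 and 37.0 CPM each) and 1.23 CPM in replicate 4. Summed, the 2 genes were at 78.1, 82.2, 74.1 and 61.8 CPM in the macrophages, against 47.6, 45.7, 52.5 and 40.3 CPM in the monocytes (exact permutation p = 0.0286, the smallest that 4 against 4 allows). For Ass1, which makes argininosuccinate, the log2 difference was -2.48 alone and the log2 ratio of means -1.60 when summed with Gm5424, and for the enolase Eno1 it was -0.91 alone and -0.55 summed with Eno1b.

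Some genes followed the total count of the library. Mn1 was at 1.29 to 132.4 CPM in the 4 libraries with the highest totals and at 382 to 614 CPM in the 4 with the lowest, and the cytokine receptor Lifr at 45.3 to 96.8 CPM and 141 to 260.5 CPM in those libraries. Each of these sets of 4 held 2 macrophage and 2 monocyte libraries.

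Tlr12, a receptor of the Toll-like family, had 104 counts in the macrophages and 2 in the monocytes, a ratio of 49.7 (95% counting interval 13.4 to 416, counting error only).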
